A study of Mus musculus with 12 samples.

Results

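Genes of glycolysis, of pyruvate use and of the hypoxia response were examined in sorted mouse long-term hematopoietic stem cells (HSCs), the cells that maintain all blood lineages. Members were the rows of the expression table whose symbol was on a fixed list, and all 38 listed genes were found among the 22548 genes of the table. They comprise 3 hypoxia-inducible transcription factor genes, 4 genes of oxygen sensing, 2 glucose transporters, 11 genes of the upper and 5 of the lower glycolytic steps, 2 lactate dehydrogenases, 7 genes that control or form the entry of pyruvate into mitochondria and 4 hypoxia-response targets. The 12 libraries fell into a young group of 4 (numbered 2 to 5 in the labels), an aged group of 5 (numbered 0 and 2 to 5) and an aged CASIN-treated group of 3 (numbered 1 to 3). All mice were C57BL/6, 2 to 4 months old in the young group and 20 to 26 months old in both aged groups, as the methods of the study give the ages. CASIN inhibits Cdc42, a small RhoGTPase that organizes cell polarity, and was given to the sorted aged cells at 5 µM. All 12 cultures, controls included, spent 16 h at 3% O2 in HBSS with 10% serum, at 37 °C under 5% CO2. No library came from cells kept at another oxygen level, so the effect of low oxygen itself cannot be measured here, and the comparisons are between young and aged cells and between treated and untreated aged cells, all after that culture.

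Glycolysis splits glucose into pyruvate in the cytoplasm. Lactate dehydrogenase turns pyruvate into lactate, whereas the pyruvate dehydrogenase complex, which the PDK kinases inhibit, commits it to oxidation in mitochondria. Hypoxia-inducible factors (HIF), made of an oxygen-labile alpha subunit (Hif1a or Epas1) and the partner Arnt, bind short RCGTG elements and activate many glycolytic genes, while prolyl hydroxylases (Egln1 to Egln3) and the ubiquitin ligase component Vhl remove the alpha subunit when oxygen is present. HSCs reside in a low-oxygen marrow and are known for reliance on glycolysis and on Pdk activity at rest. HIF control acts largely on protein stability, which RNA values do not report.

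Each gene has a log2 expression value per library, which the authors had brought to a common distribution (quantile normalization). In each library many genes share the lowest value. A gene above it is called detected below, and its depth in reads is unknown. The lowest value above this floor that at least 20 genes shared is named the first detection step, and the next such value the second. The first detection step was at 1.84 to 4.11 in young, 0.22 to 1.36 in aged and 0.04 to 3.34 in aged CASIN-treated libraries. Low values seen in an aged library could therefore often not be seen in a young one. The share of all genes detected was 27.0% to 42.9% in young, 50.8% to 78.1% in aged and 30.4% to 88.8% in aged CASIN-treated HSCs, where replicate 2 stood apart at 88.8% beside 30.4% and 32.3%. The values are not per transcript length, since the detection limit of the longest transcripts was not lower than that of the shortest in any of the 12 libraries, so levels were compared between libraries and never between genes. Of 12 HSC markers, 4 to 7 were detected in young, 8 to 12 in aged and 4 to 12 in aged CASIN-treated libraries. Meis1 was detected in every library, whereas Kit, which marks the sort gate, was at the lowest value in all 4 young libraries. Among T cell markers, Cd3d, Cd4 and Cd8a were detected in all 12 libraries, with Cd3d between 8.26 and 9.98, whereas Cd3e was detected in 6 and Cd3g in 5 (0 of the 4 young). The methods describe a depletion of lineage-positive cells with antibodies that include anti-CD5 and anti-CD8a before sorting. The log2 values of the 5 T cell markers, lowest values included, summed to between 18.5 and 23.7 in young, 19.3 and 22.0 in aged and 16.0 and 30.0 in aged CASIN-treated libraries. Cd3d made up at least 8.26 of each sum, so these sums do not measure the content of T cells. Cd48, Hbb-bt, Hbb-bs and Prtn3, markers of progenitor, erythroid and myeloid cells, were at the lowest value in all 12 libraries. The part of T cells in the results below was not tested.

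Members were detected more often than genes in general. In young HSCs 47.4% ± 14.7 of the members were detected (SD, n = 4), in aged HSCs 73.7% ± 16.4 (n = 5) and in aged CASIN-treated HSCs 64.0% ± 26.6 (n = 3), beside 34.3% ± 7.56, 62.6% ± 11.9 and 50.5% ± 33.2 of all genes. The share of members was above that of all genes in each library except young replicate 4, with 42.1% of members and 42.9% of genes. Over the 12 libraries 7 members (18.4%) were detected throughout, namely Epas1, Arnt, Gpi1, Pfkfb3, Gapdh, Pdk4 and Vegfa, beside 9.50% of all genes. In at least 6 libraries 27 members (71.1%) were detected, beside 51.4% of all genes, and every member was detected in at least 2. The members' detection moved with that of the whole library, and no test was made of the difference between the shares. Fewer cells of a type, less RNA per cell and a lower sequencing depth cannot be told apart in such bulk libraries, whose depth is unknown.

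**Figure D1:**
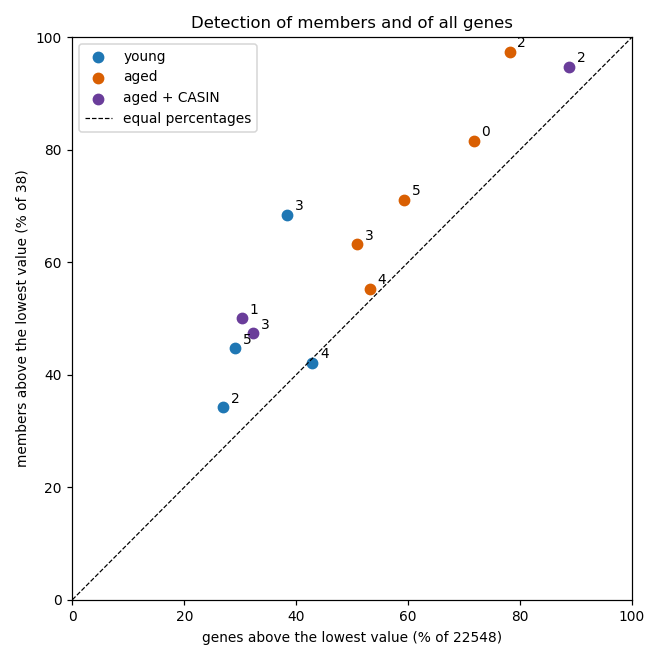
Percent of the 38 members (vertical axis) against percent of all 22548 genes (horizontal axis) above the lowest value, with 1 point per library, numbered by replicate and coloured by group, and a dashed line of equal percentages. Points lie above the line except young replicate 4, and aged replicate 2 and aged CASIN-treated replicate 2 stand at the upper right with 97.4% and 94.7% of members.

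**Figure D2:**
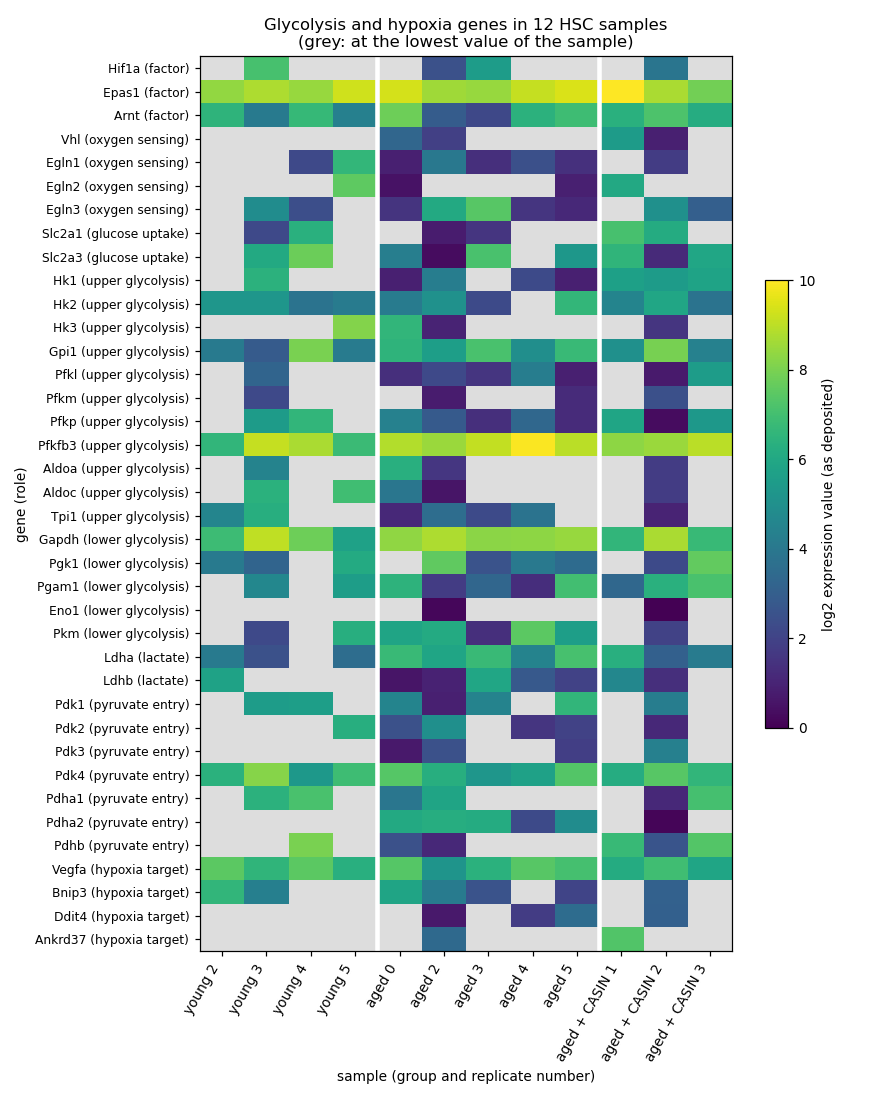
Log2 expression value as deposited (colour scale) of the 38 members (rows, with their role) in the 12 libraries (columns, by group and replicate number), with grey where a gene was at the lowest value of its library. Complete rows without grey are Epas1, Arnt, Gpi1, Pfkfb3, Gapdh, Pdk4 and Vegfa, and most grey cells lie in young libraries and in aged CASIN-treated replicates 1 and 3.

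No member differed between groups at a Benjamini-Hochberg adjusted p under 0.05 when all 12 libraries were fitted together with limma and adjusted over all 22548 genes. By unadjusted p under 0.05, 2 members (5.26%) had lower values in the young group than in the aged group and 0 had higher ones, beside 3.2% and 2.13% of all genes, and 0.0177% of all genes passed the adjusted threshold. Between aged CASIN-treated and aged HSCs 3 members (7.89%) were higher with CASIN and 2 (5.26%) lower, beside 2.48% and 1.92% of all genes, with 0.0222% past the adjusted threshold. Between young and aged CASIN-treated HSCs 0 members were higher in young and 1 (2.63%) was lower, beside 1.39% and 2.9%, with 0% of genes past the adjusted threshold. These members were Ldha and Pdha2 for age, Slc2a1, Hk1 and Pdhb (higher) and Pkm and Pdha2 (lower) for CASIN, and Hk1 for young against treated cells. The members' shares lay above those of all genes in both directions with CASIN and for lower values in young than aged HSCs. These rest on counts of 3, 2 and 2 genes, and the other shares lay below those of all genes. Whether the shares differ was not tested. Among genes with a mean of at least 3, 1 of 14 members passed the unadjusted threshold with CASIN, beside 5.29% of such genes. The median difference of the members was -0.02 between young and aged HSCs beside -0.02 for all genes, -0.01 with CASIN beside -0.04, and -0.14 between young and aged CASIN-treated HSCs beside 0.09. Members stood higher and lower in equal number, 19 and 19, in both comparisons with aged HSCs. The 2 comparisons use the same 5 aged libraries.

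**Figure D3:**
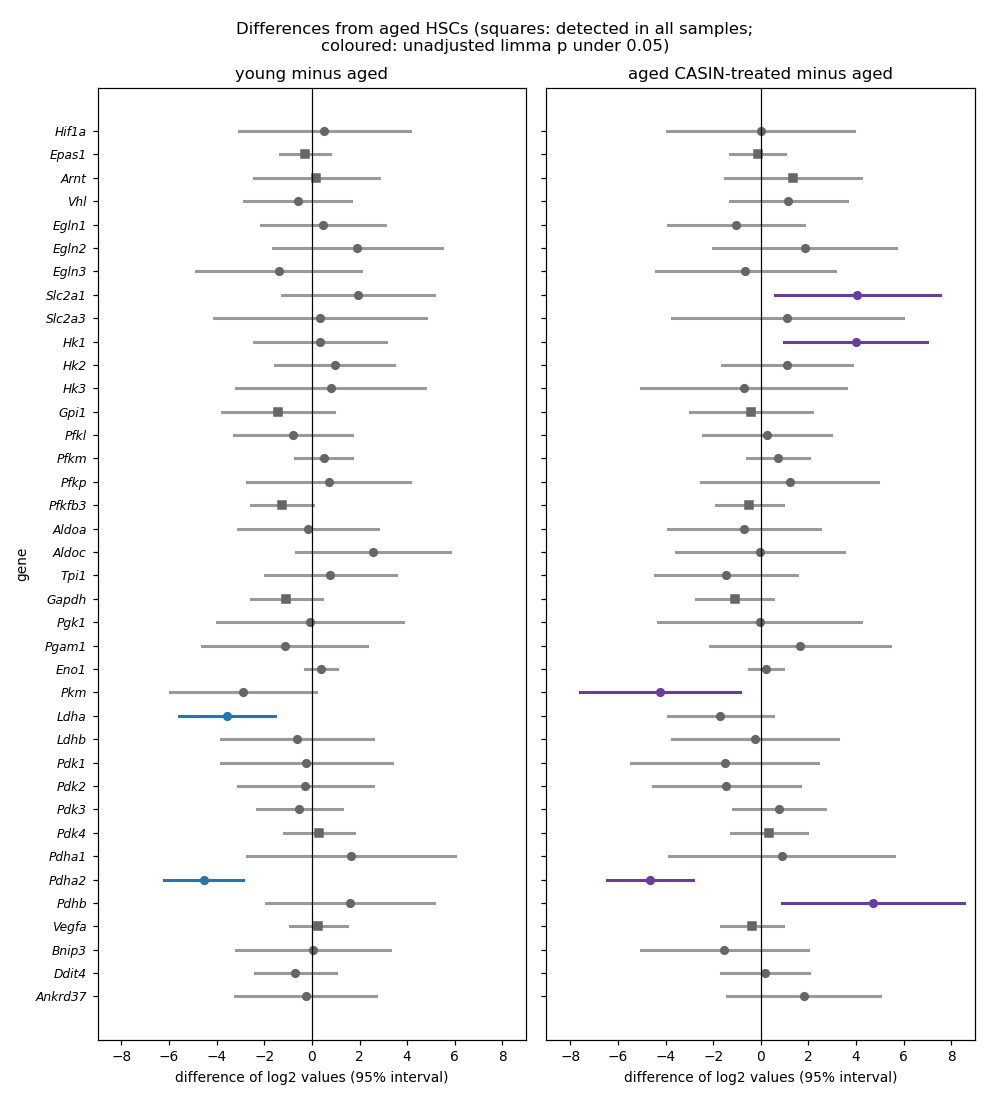
Difference of mean log2 values from aged HSCs (horizontal axis) with its 95% interval for each of the 38 members (rows), in young (left) and in aged CASIN-treated HSCs (right), with squares for the 7 members detected in all libraries and colour for an unadjusted limma p under 0.05. Intervals of the squares Epas1, Vegfa, Pfkfb3, Pdk4 and Gapdh are among the narrowest and those of Gpi1 and Arnt are wider than that of Ldha, and the coloured intervals are those of Ldha and Pdha2 on the left and of Slc2a1, Hk1, Pkm, Pdha2 and Pdhb on the right.

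How small a difference could be seen depended on detection. For the 7 members detected in all libraries the 95% interval of the difference between young and aged HSCs reached 1.05 to 2.62 log2 units to either side (median 1.46), and for the other 31 the median was 3.08 and the widest 4.46. With CASIN the corresponding medians were 1.59 and 3.35. All 7 intervals of the first set included 0 in each of the 3 comparisons, with differences of -1.43 to 0.30 for young and -1.09 to 1.34 for treated cells, each against aged HSCs.

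Of the HIF subunits, Epas1 (chromosome 17, 86753700 to 86833410, plus strand, GENCODE M21 on mm10), which encodes HIF-2 alpha, was detected in all libraries. Its log2 value was 8.37, 8.78, 8.47 and 9.27 in young, 9.37, 8.59, 8.45, 9.13 and 9.43 in aged and 9.98, 8.73 and 7.86 in aged CASIN-treated HSCs. The 3 groups overlapped, with treated replicate 1 above and treated replicate 3 below all young and aged libraries. Epas1 had the narrowest interval of the 7, with a difference of -0.27 (95% interval -1.32 to 0.78) between young and aged HSCs and -0.13 (-1.28 to 1.01) with CASIN. Arnt, the shared beta subunit, was at 6.49, 4.14, 6.68 and 4.37 in young, 7.81, 2.92, 2.15, 6.44 and 6.90 in aged and 6.34, 7.21 and 6.19 in aged CASIN-treated HSCs. Aged libraries spread most, with replicates 2 and 3 apart from the others, and the difference was 0.18 (-2.45 to 2.80) in young and 1.34 (-1.52 to 4.19) with CASIN. Hif1a, the alpha subunit best known for glycolytic targets, was detected in 4 libraries, at 7.10 in young replicate 3, 2.49 and 5.53 in aged replicates 2 and 3 and 3.88 in aged CASIN-treated replicate 2. The other 8 libraries were at their lowest value, so no group was uniform, and the intervals ran from -3.08 to 4.12 in young and from -3.92 to 3.92 with CASIN.

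Oxygen-sensing members were detected in 31.2% of young, 70.0% of aged and 50.0% of aged CASIN-treated values, beside 34.3%, 62.6% and 50.5% of all genes. None of these members had an unadjusted p under 0.05. Vhl, the substrate receptor of the ligase that removes HIF alpha, was at the lowest value in all 4 young libraries, at 3.29 and 1.88 in aged replicates 0 and 2 and at 5.48 and 0.90 in aged CASIN-treated replicates 1 and 2. The remaining 4 libraries were at the lowest value, and the difference with CASIN of 1.16 (-1.29 to 3.61) became -0.42 without replicate 1. The aged value of 1.88 for Vhl was under the first detection step of young replicates 2, 3 and 5 (4.11, 2.22 and 3.59). Egln1, the main HIF prolyl hydroxylase, was detected in all 5 aged libraries, at 0.90, 4.02, 1.36, 2.46 and 1.39, in young replicates 4 and 5 at 2.21 and 6.62 and in aged CASIN-treated replicate 2 at 1.77. Its highest value was in a young library although aged HSCs detected it throughout, and the difference was 0.47 (-2.15 to 3.09) in young and -1.04 (-3.88 to 1.81) with CASIN. Egln2 and Egln3, the other prolyl hydroxylases, were detected in 4 and 9 libraries, with Egln3 in all 5 aged ones.

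Of the 3 members that stood higher in aged CASIN-treated HSCs by unadjusted p, 2 act in glucose uptake and the first phosphorylation (Slc2a1 and Hk1), and Pdhb is described with pyruvate entry. Slc2a1 (chromosome 4, 119108711 to 119137983, plus strand), which encodes the transporter GLUT1, was at 7.09 and 6.15 in aged CASIN-treated replicates 1 and 2 and at the lowest value in replicate 3. In aged HSCs it was at 0.74 and 1.54 in replicates 2 and 3 and at the lowest value in the other 3, and in young HSCs at 2.22 and 6.33 in replicates 3 and 4 and at the lowest value in the other 2. The groups overlapped, since treated replicate 3 lay among the aged libraries. The difference was 4.06 ± 1.57 (SE; 95% interval 0.59 to 7.53; limma, unadjusted p = 0.0259, Benjamini-Hochberg adjusted p = 0.948) with CASIN, and 1.92 (-1.26 to 5.11) in young. Without aged CASIN-treated replicate 1 the difference for Slc2a1 was 2.81 (unadjusted p = 0.131), and without replicate 2 it was 3.29 (unadjusted p = 0.105). Slc2a3, which encodes GLUT3, was detected in 9 libraries and differed by 1.11 (-3.75 to 5.96).

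Hk1 (chromosome 10, 62268855 to 62379908, minus strand), which encodes the hexokinase that traps glucose as glucose-6-phosphate in most tissues, was at 5.70, 5.51 and 5.80 in aged CASIN-treated HSCs, a narrow range. In aged HSCs it was at 0.86, 4.22, 2.23 and 0.89 in replicates 0, 2, 4 and 5 and at the lowest value in replicate 3. In young HSCs it was at 6.41 in replicate 3 and at the lowest value in the other 3. All treated values lay above all aged ones, and young replicate 3 lay above both groups. The difference was 3.98 ± 1.37 (SE; 0.97 to 6.999; limma, unadjusted p = 0.0144, adjusted p = 0.948) with CASIN against aged HSCs and -3.63 ± 1.43 (-6.78 to -0.48; unadjusted p = 0.0279, adjusted p = 0.9995) for young against aged CASIN-treated HSCs. The first kept an unadjusted p under 0.05 when any library was left out, with p at most 0.0392. The second had an unadjusted p over 0.05 when any library of a compared group was left out, except young replicate 3, for which it was -5.09. With the detection share of each library as a covariate Hk1 stood 4.22 higher with CASIN (unadjusted p = 0.0192), and its difference between young and treated cells was -3.31 (unadjusted p = 0.0681). An antisense gene, Hk1os, overlaps Hk1 and was detected in 2 libraries, and the sources used here do not state whether reads were counted by strand.

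Hexokinase 2 (Hk2), the insulin- and hypoxia-regulated isoform, was at 5.26, 5.23, 3.82 and 4.15 in young and at 4.52, 5.92 and 3.82 in aged CASIN-treated HSCs. In aged HSCs it was at 4.15, 5.05, 2.25 and 6.63 in replicates 0, 2, 3 and 5 and at the lowest value in replicate 4. The groups overlapped, with a difference of 0.95 (-1.55 to 3.45) in young and 1.09 (-1.63 to 3.82) with CASIN. Hk3, the myeloid isoform, was detected in 4 libraries.

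The next steps rearrange and commit the sugar. Gpi1, glucose-6-phosphate isomerase, was at 4.11, 2.85, 7.97 and 4.15 in young, 6.51, 5.61, 7.14, 4.95 and 6.79 in aged and 5.01, 7.94 and 4.39 in aged CASIN-treated HSCs. Except for replicate 4, young libraries lay below all aged ones, and the difference of -1.43 (-3.78 to 0.92; limma, unadjusted p = 0.207) became -2.4997 (unadjusted p = 0.0155) without that library. Pfkfb3, which makes the activator of phosphofructokinase and is an established HIF target, was at 6.58, 9.12, 8.72 and 6.82 in young, 8.83, 8.50, 9.08, 9.96 and 8.98 in aged and 8.31, 8.49 and 8.96 in aged CASIN-treated HSCs. Its young replicates 2 and 5 lay below all other libraries and young replicates 3 and 4 lay among the aged ones. Its difference of -1.26 ± 0.59 (-2.56 to 0.04) in young against aged HSCs had an unadjusted limma p of 0.0558 and an adjusted p of 0.764. For Pfkfb3 6 alternative settings gave an unadjusted p under 0.05, the lowest being 0.0144 without young replicate 3, and the difference with CASIN was -0.49 (-1.90 to 0.93). Of the other upper-glycolysis members, the phosphofructokinase genes Pfkl, Pfkm and Pfkp were detected in 8, 4 and 10 libraries, the aldolases Aldoa and Aldoc in 4 and 5 and triosephosphate isomerase Tpi1 in 7. None of these 6 had an unadjusted p under 0.05 in any comparison. Aldoc had the largest differences among them, 2.59 (-0.65 to 5.82) in young against aged and 2.61 (-1.07 to 6.29) in young against aged CASIN-treated HSCs.

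**Figure D4:**
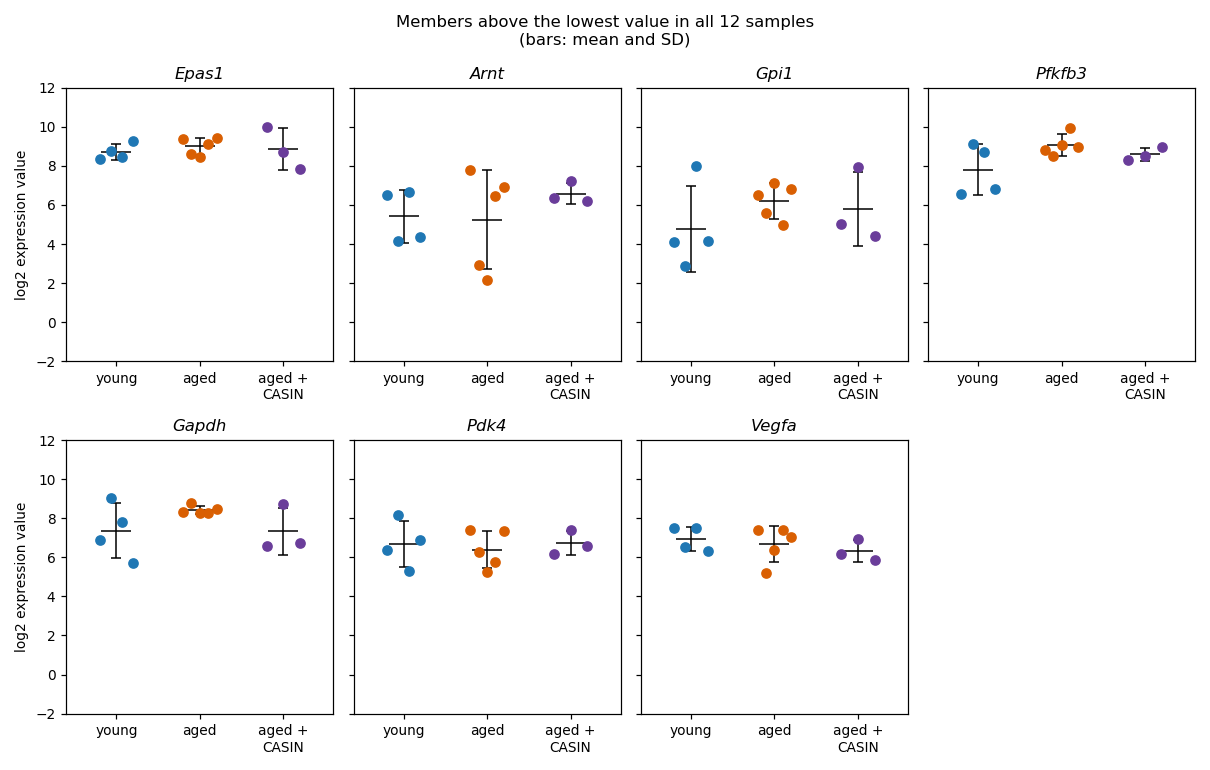
Log2 expression value (vertical axis) of the 7 members detected in all 12 libraries, with 1 point per library and bars for the group mean and SD for 4 young, 5 aged and 3 aged CASIN-treated libraries. Epas1 and Vegfa overlapped across groups, and for Pfkfb3 young replicates 2 and 5 lay below the aged libraries.

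In the lower glycolytic steps, Gapdh, which oxidizes glyceraldehyde-3-phosphate and is often used as a reference transcript, was at 6.87, 9.04, 7.80 and 5.71 in young, 8.34, 8.79, 8.28, 8.29 and 8.46 in aged and 6.56, 8.73 and 6.72 in aged CASIN-treated HSCs. The aged libraries lay close together while the young and treated ones spread widely, with a group SD of 0.21 beside 1.41 and 1.21. The difference was -1.08 (-2.57 to 0.42) in young and -1.09 (-2.72 to 0.53) with CASIN. Without young replicate 3 the first was -1.64 (limma, unadjusted p = 0.0260), and without aged CASIN-treated replicate 2 the second was -1.79 (unadjusted p = 0.0378). With the detection share as a covariate the Gapdh difference between young and aged HSCs was -0.01. Its sperm paralog Gapdhs was detected in all 12 libraries too, and how any reads shared between related genes were assigned is not known.

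Pkm (chromosome 9, 59656368 to 59679375, plus strand) encodes the muscle-type pyruvate kinase that yields pyruvate and ATP. It was at 5.86, 6.12, 1.36, 7.49 and 5.61 in aged HSCs, at 1.96 in aged CASIN-treated replicate 2 and at the lowest value in replicates 1 and 3. In young HSCs it was at 2.22 and 6.26 in replicates 3 and 5 and at the lowest value in the other 2. Aged replicate 3 lay among the treated libraries and the other 4 aged libraries above them. The difference with CASIN was -4.23 ± 1.52 (-7.58 to -0.88; limma, unadjusted p = 0.0180, adjusted p = 0.948), and without aged CASIN-treated replicate 1 or 3 it was -4.02 (unadjusted p = 0.0527) or -3.99 (unadjusted p = 0.0537). Pkm differed by -2.89 (-5.97 to 0.19; unadjusted p = 0.0630) in young, which became -4.18 (unadjusted p = 0.00617) without young replicate 5 and -3.87 (unadjusted p = 0.00860) without aged replicate 3. Of the remaining enzymes, Pgk1 and Pgam1 were detected in 9 and 10 libraries with differences of -0.07 and -1.14 in young. Eno1, the ubiquitous enolase, was detected in 2 libraries, at 0.18 and 0.02, both near the floor. Its young and aged values did not overlap only because the lowest value of the young libraries was higher. The copies Eno1b of Eno1 and Aldoart1 of Aldoa were detected in 1 and 8 libraries. How reads shared between such copies were assigned is not given in the sources used here.

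Ldha and Pdha2 were the members whose age difference kept an unadjusted p under 0.05 in each alternative setting in which they were tested. Ldha (chromosome 7, 46841475 to 46855627, plus strand) encodes the subunit that favours lactate formation and is a textbook HIF target. It was at 4.11, 2.50 and 3.59 in young replicates 2, 3 and 5, at the lowest value in young replicate 4, at 6.76, 5.87, 6.80, 4.49 and 7.09 in aged and at 6.32, 3.06 and 4.15 in aged CASIN-treated HSCs. All young values lay below all aged ones, and treated replicate 1 lay within the aged range and replicates 2 and 3 within or just above the young range. The young values 4.11 and 3.59 were the first detection steps of replicates 2 and 5, and 2.50 was the second of replicate 3. All young values of Ldha were thus at or near the floor, and the size of the difference depends on where that floor lies. The mean difference was -3.54 ± 0.91 (-5.56 to -1.53; limma, unadjusted p = 0.00266, adjusted p = 0.535). Its size for Ldha ranged from -4.65 to -2.80 over 23 alternatives, with a highest unadjusted p of 0.00833, and was -4.65 with the detection share as a covariate. With CASIN the difference was -1.69 (-3.89 to 0.50; unadjusted p = 0.117), and for Ldha it was -0.97 without aged CASIN-treated replicate 2, -2.60 (unadjusted p = 0.0315) without replicate 1 and -2.17 (unadjusted p = 0.0482) with the detection covariate. Its partner Ldhb, which favours pyruvate formation, was detected in all 5 aged libraries but in 1 young and 2 treated ones, with a difference of -0.61 (-3.81 to 2.58) in young.

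Entry of pyruvate to mitochondria held the lowest p of all members. Pdha2 (chromosome 3, 141210004 to 141212355, minus strand) is an intronless copy of the X-linked Pdha1 gene for the E1 alpha subunit of pyruvate dehydrogenase and is known from testis. Its annotated transcript of 2352 bases spans the whole gene. It was at the lowest value in all 4 young libraries and at 6.07, 6.22, 6.15, 2.23 and 4.85 in the aged ones. In aged CASIN-treated HSCs it was at the lowest value in replicates 1 and 3 and at 0.15 in replicate 2, which is under the lowest value of every young library. All aged values thus lay above all young and treated ones. The 2.23 of aged replicate 4 was under the first detection step of young replicates 2 and 5 (4.11 and 3.59). It was also under that of aged CASIN-treated replicates 1 and 3 (3.34 and 3.03). For that library the lack of overlap with those 4 libraries therefore rests on their detection limits. The difference was -4.54 ± 0.76 (-6.21 to -2.88; limma, unadjusted p = 9.73e-05, adjusted p = 0.182) in young and -4.65 ± 0.82 (-6.47 to -2.84; unadjusted p = 0.000163, adjusted p = 0.282) with CASIN. These sizes depend on where the lowest value was set and are not bounds. Without aged replicate 4, the lowest aged library, the adjusted p of Pdha2 was 0.00128 and 0.00215, with differences of -5.26 and -5.37. Over all alternatives the adjusted p for Pdha2 ran from 0.00128 to 0.797 and from 0.00215 to 0.748. Reads of such a copy can also align to Pdha1, which was detected in 6 libraries, at 6.41 and 7.12 in young replicates 3 and 4, 3.93 and 5.83 in aged replicates 0 and 2 and 1.16 and 7.05 in aged CASIN-treated replicates 2 and 3. Of the 5 aged libraries that held Pdha2, 3 were at the lowest value for Pdha1, and the difference of Pdha1 was 1.64 (-2.72 to 6.00) in young.

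The other E1 subunit, Pdhb (chromosome 14, 8165996 to 8173025, minus strand), was at 6.74, 2.58 and 7.33 in aged CASIN-treated HSCs. It was at 2.48 and 1.16 in aged replicates 0 and 2, at 8.005 in young replicate 4 and at the lowest value elsewhere. All treated values lay above all aged ones, although treated replicate 2 and aged replicate 0 were close, at 2.58 and 2.48. The difference was 4.70 ± 1.73 (0.87 to 8.52; limma, unadjusted p = 0.0206, adjusted p = 0.948), and without aged CASIN-treated replicate 1 or 3 it was 4.10 (unadjusted p = 0.0742) or 3.81 (unadjusted p = 0.0873). The kinase gene Pdk4, whose product switches the complex off in fasting and quiescence, was at 6.39, 8.17, 5.32 and 6.91 in young, 7.37, 6.27, 5.24, 5.74 and 7.33 in aged and 6.19, 7.40 and 6.59 in aged CASIN-treated HSCs. The 3 groups of Pdk4 overlapped, with differences of 0.30 (-1.15 to 1.76) and 0.34 (-1.25 to 1.93). Pdk1, the HIF-induced kinase, was detected in young replicates 3 and 4 at 5.51 and 5.60, in aged replicates 0, 2, 3 and 5 at 4.50, 0.90, 4.47 and 6.60 and in aged CASIN-treated replicate 2 at 4.24, with a difference of -0.23 (-3.83 to 3.38) in young. Pdk2 and Pdk3 were detected in 6 and 4 libraries.

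**Figure D5:**
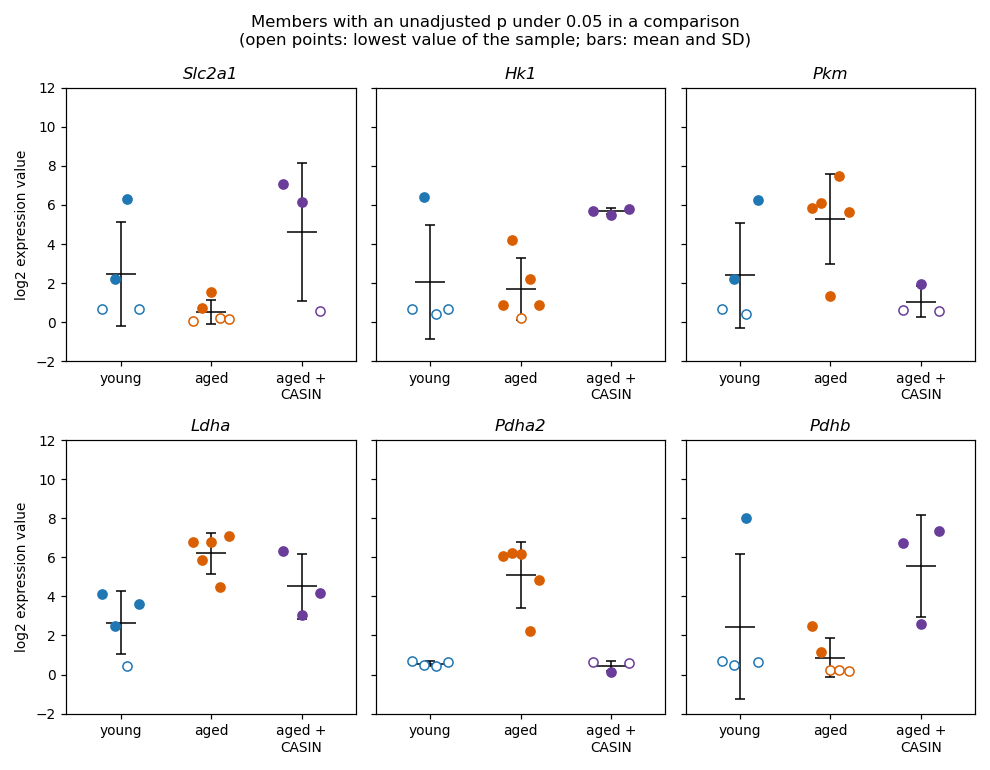
Log2 expression value (vertical axis) in each library for the 6 members with an unadjusted p under 0.05 in a comparison, for 4 young, 5 aged and 3 aged CASIN-treated libraries, with open points at the lowest value of the library and bars for the group mean and SD. Pdha2 was above the floor in all aged libraries, Ldha was higher in aged than young libraries, and Hk1 and Pdhb were higher in treated than in aged ones.

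Among hypoxia-response targets, Vegfa, the angiogenic growth factor, was at 7.49, 6.55, 7.48 and 6.32 in young, 7.37, 5.19, 6.40, 7.41 and 7.06 in aged and 6.16, 6.93 and 5.87 in aged CASIN-treated HSCs. These ranges overlapped, with a difference of 0.27 (-0.93 to 1.47) in young and -0.36 (-1.67 to 0.94) with CASIN. Ddit4, an inhibitor of mTORC1 signalling, was at the lowest value in all young libraries and detected at 0.67, 1.80 and 3.52 in aged replicates 2, 4 and 5 and at 3.06 in aged CASIN-treated replicate 2. The aged values 0.67 and 1.80 were under the first detection step of every young library (1.84 to 4.11). Bnip3, a mitophagy receptor, was detected in 7 libraries and Ankrd37 in 2, with differences of 0.03 and -0.26 in young, and none of the 4 targets had an unadjusted p under 0.05.

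The RCGTG element that HIF recognizes was searched, as ACGTG or GCGTG on either strand, in the 300 bases around each RefSeq start (GRCm38.p6). It occurred in 88.9% of the 36 members with a promoter in the reference table and in 53.8% of the 16492 such genes of the table. Of 52 member promoters 41 (78.8%) held it, beside 50.7% of all 19984. For the 2 genes of the age difference and the 3 higher with CASIN a promoter is printed 5′ to 3′ on the gene's strand with matches in capitals. CACGTG holds a match on both strands and counts as 2, and it is also the E-box of other factors. Ldha and Hk1 each have 2 promoters in the reference table, with 7 and 2 matches for Ldha and 0 and 5 for Hk1, and the one with more matches is shown. The promoters of Pdha2, Slc2a1 and Pdhb hold 0, 2 and 2 matches. Pkm, lower with CASIN, has 2 promoters with 0 and 2 matches, which are not printed. A match says only that these letters are there.
Ldha, chr7:46845554-46845853, plus: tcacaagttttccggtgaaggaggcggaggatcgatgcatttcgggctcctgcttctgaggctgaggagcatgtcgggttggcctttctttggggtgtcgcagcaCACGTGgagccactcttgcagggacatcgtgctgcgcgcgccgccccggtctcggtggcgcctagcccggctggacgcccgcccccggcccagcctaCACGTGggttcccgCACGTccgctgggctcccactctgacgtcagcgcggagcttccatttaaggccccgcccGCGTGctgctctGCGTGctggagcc
Pdha2, chr3:141212306-141212605, minus: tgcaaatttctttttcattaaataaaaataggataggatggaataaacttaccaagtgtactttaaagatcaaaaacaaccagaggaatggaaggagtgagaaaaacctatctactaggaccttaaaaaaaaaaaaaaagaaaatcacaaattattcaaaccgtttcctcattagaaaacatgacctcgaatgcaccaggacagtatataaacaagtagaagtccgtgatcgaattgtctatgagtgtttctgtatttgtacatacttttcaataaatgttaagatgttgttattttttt
Slc2a1, chr4:119108495-119108794, plus: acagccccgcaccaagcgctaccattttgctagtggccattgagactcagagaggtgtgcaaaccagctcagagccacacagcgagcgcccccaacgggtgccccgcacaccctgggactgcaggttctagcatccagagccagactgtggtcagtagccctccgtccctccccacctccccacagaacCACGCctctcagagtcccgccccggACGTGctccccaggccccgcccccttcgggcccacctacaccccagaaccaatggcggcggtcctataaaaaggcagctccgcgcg
Hk1, chr10:62340372-62340671, minus: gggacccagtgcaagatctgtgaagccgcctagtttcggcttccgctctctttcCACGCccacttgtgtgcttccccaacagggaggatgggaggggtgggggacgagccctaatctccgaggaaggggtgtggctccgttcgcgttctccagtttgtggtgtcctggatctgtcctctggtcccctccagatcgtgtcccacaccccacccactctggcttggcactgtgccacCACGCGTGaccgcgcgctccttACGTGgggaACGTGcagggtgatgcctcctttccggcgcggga
Pdhb, chr14:8172943-8173242, minus: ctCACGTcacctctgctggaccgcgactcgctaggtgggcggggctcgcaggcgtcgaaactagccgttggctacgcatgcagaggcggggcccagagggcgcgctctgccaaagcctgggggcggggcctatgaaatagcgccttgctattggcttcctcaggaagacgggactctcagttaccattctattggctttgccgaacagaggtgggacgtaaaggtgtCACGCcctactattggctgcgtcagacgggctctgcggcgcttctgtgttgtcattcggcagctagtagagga

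Other genes of these pathways, from lists that do not include the members, gave few calls as well, to be read beside the shares of all genes given above (2.13% higher and 3.2% lower for age, 2.48% and 1.92% with CASIN, 1.39% and 2.9% for young against treated cells). Of 27 measured genes of glycolysis and lactate transport, the young group had 1 higher and 1 lower than the aged group by unadjusted limma p under 0.05, 0 differed with CASIN and 1 was lower in young than in aged CASIN-treated HSCs. The first pair were Gapdhs, 2.51 higher (unadjusted p = 0.0219), and the insulin-responsive transporter Slc2a4, 2.78 lower (difference -2.78, unadjusted p = 0.0322), and the last was the lactate transporter Slc16a1 with -4.75 (unadjusted p = 0.00714). Of 12 other genes of pyruvate metabolism 0 passed in any comparison. Of 10 genes of the pentose phosphate pathway only Tkt, transketolase, passed, at -4.36 in young against aged CASIN-treated HSCs (unadjusted p = 0.0158). Of 36 further HIF and hypoxia-response genes, the young group had 1 higher and 2 lower than the aged group, namely Pgf, a growth factor of the Vegfa family, at 2.82 (unadjusted p = 0.00518), Ak4, a mitochondrial adenylate kinase, at -3.59 (unadjusted p = 0.00344), and Ero1l, an oxidoreductase of the endoplasmic reticulum, at -3.44 (unadjusted p = 0.0310). With CASIN only Rbx1, a component of the Vhl ligase, passed, at 2.83 (unadjusted p = 0.0437). Ak4 had the smallest p, at -5.59 in young against aged CASIN-treated HSCs (unadjusted p = 0.000365, adjusted p = 0.337). None of these genes had an adjusted p under 0.05. The median differences of the 4 lists, in the order above, were 0.21, -0.36, -0.62 and -0.37 in young and 0.19, -0.65, 0.12 and -0.35 with CASIN, each against aged HSCs.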

How the data were processed

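RNA-seq libraries from sorted HSCs (4 young, 5 aged, 3 aged with CASIN) were analysed. The authors trimmed reads with trim galore, aligned them to mm10 with TopHat and processed them with Cufflinks, and deposited quantile-normalized log2 values for 22548 genes. The step from Cufflinks to these log2 values is not given in the sources used here. No counts were used, so depth and counting error are unknown. Values were used as deposited, without filter, in limma 3.58.1 (R 4.3.3) with 3 groups in 1 fit and two-sided moderated tests, adjusted by Benjamini-Hochberg over all genes at a threshold of 0.05. The fit was tested on simulated data. Detection, promoters and plots used Python 3.11.15, pandas 2.3.3 and matplotlib 3.10.9. Members and gene lists were chosen with earlier results of these data known. Values are given per library for members with an unadjusted p under 0.05, detected in all 12 libraries, or representing a role. Of other pathway genes the 3 with the smallest p per comparison could be named. Positions are from GENCODE M21. The labels number replicates but name no animals, so p-values measure the spread between these libraries. Alternatives were a common lowest value, centring, filters, a pseudocount of 0.1, array weights, limma-trend, robust fits, 2 groups only, the share of detected genes as a covariate, a block for replicate numbers, and leaving out each library. No batch is given in the labels.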

Additional observations from a re-analysis of the deposited data

Results flagged for a closer look

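Among 44 groups of 4 or 5 libraries tested for a value far from the others, 3 stood apart, and chance gives about 1 in 20 in data without ties. The members tested were the 20 whose values are given per library, beside 2 measures of detection per library. Where 3 of 4 libraries are at the lowest value, a single detected value stands apart by construction, so that rate does not apply here. Hif1a was at 7.10 in young replicate 3, Hk1 at 6.41 in young replicate 3 and Pdhb at 8.005 in young replicate 4. In each case it was the 1 library of the 4 young ones in which the gene was detected.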

How the results depend on the processing

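No member difference with an unadjusted p under 0.05 changed sign. Of 60 differences of the members whose values are given per library, 26 changed sign under at least 1 alternative. Each of the 26 had an unadjusted limma p of at least 0.158 as reported. Among them Vhl between young and aged CASIN-treated HSCs went from -1.76 to 0.05 with the replicate block, and the median of the members less that of all genes in that comparison went from -0.23 to 0.03. The count of members with an unadjusted p under 0.05 changed from 2 between young and aged HSCs to 1 with a mean of at least 3 (14 members tested) and 4 with limma-trend. Between aged CASIN-treated and aged HSCs it changed from 5 to 1 with that mean, 3 with the replicate number as a block and 7 with the detection covariate. Between young and aged CASIN-treated HSCs it changed from 1 to 0 with that mean, with limma-trend and with 2 groups only, and to 2 with array weights and with the replicate block. Leaving out each library in turn gave 2 to 5, 3 to 5 and 0 to 3 members in these comparisons, and 0 to 1 members by adjusted p in each of the first 2, where the 1 was Pdha2 without aged replicate 4. Of the members given per library, 21 single values fell short of and 21 passed the unadjusted threshold under an alternative. Deviations of same-numbered libraries from their group means had correlations from -0.03 to 0.06. With 2 to 4 such pairs per comparison, this cannot settle whether the numbers pair the libraries. With the block, Hk1, Slc2a1, Pkm and Pdhb had an unadjusted p of 0.228, 0.215, 0.235 and 0.0600 for CASIN against aged HSCs, Hk1 had 0.250 for young against treated cells, and Ldha stood at -2.92 (unadjusted p = 0.0132) with CASIN. Centring moved the median difference of all genes to 0.44, 0.31 and 0.19. With 3 to 5 libraries a group, intervals were wide even in members seen in every library. Between young and aged HSCs they reached 1.05 to 2.62 log2 units to either side (median 1.46). A difference smaller than the reach of its interval could not be told from 0.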
